A study of Mus musculus with 8 samples.

Results

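Integrins are adhesion receptors built from an alpha and a beta chain, and 10 of their chains are described here: the leukocyte chains Itgam, Itgax, Itgal, Itgb2 and Itga4, and the matrix-binding chains Itgav, Itga6, Itga1, Itga7 and Itga8. They were chosen by name as chains of leukocytes and of stroma, out of 26 integrin chains looked up and 35975 genes measured. The 8 libraries are bulk RNA from fibrosarcomas of syngeneic cells growing under the skin of C57BL/6 mice, all labelled wild type, with no treatment and no age given in the labels. Tumors were digested with collagenase b and DNase I, red cells were lysed, and the suspension was run over magnetic columns, which retain iron-loaded cells. Each of the tags 3L, 3R, 4R and 5L has 1 library of retained cells (iron positive) and 1 of cells that ran through (iron negative), so there were 4 libraries per fraction. The labels do not say whether tags are separate animals, so p-values measure the spread between these libraries only. Library totals ran from 19.04 to 24.31 M estimated counts.

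The alpha chain of an integrin mostly sets which ligand is bound, and the beta chain links the receptor to the actin cytoskeleton through talin and kindlin. Itgb2 is made by leukocytes and pairs with Itgal, Itgam or Itgax, whose receptors bind intercellular adhesion molecules, and in the case of the Itgam receptor also complement fragments. Itga4 serves leukocytes in binding VCAM-1 and fibronectin. Of the matrix-binding chains, Itgav forms receptors for vitronectin and latent TGF-beta, Itga6 and Itga7 for laminins, Itga1 for collagens and Itga8 for nephronectin and fibronectin. In bulk RNA, fewer cells of a type and less RNA per cell cannot be told apart.

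The chains did not move by class as a whole. Of the 5 leukocyte chains, 3 fell in the iron positive fraction (Itgax, Itgal and Itga4) and none rose, while 2 of the 5 matrix-binding chains rose (Itga1 and Itga7) and none fell. These calls are from edgeR's quasi-likelihood test with Benjamini-Hochberg adjusted p under 0.05 over 13343 genes, of which 8.49% were called higher and 5.21% lower. At an unadjusted p under 0.05, 0 leukocyte chains were higher and 2 matrix-binding chains were lower, and DESeq2 called 0 and 1 of them. Over all genes, 2279 were higher and 1868 lower at that unadjusted p, and DESeq2 called 1703 higher and 1070 lower. The 2 lower matrix-binding chains, Itgav and Itga6, passed with the tag as a replicate block, which made 2 matrix-binding chains higher and 2 lower. With that block, 1705 of the 13343 genes were called higher and 1253 lower. The median log2 fold change (iron positive minus iron negative) was -0.37 over the leukocyte chains, -0.10 over the matrix-binding chains and -0.01 over all genes tested. Scaled to 12 macrophage genes instead of the trimmed mean of M values (TMM), which raised the median gene by 0.31, none of the 3 leukocyte chains passed, at -0.55 for Itgax, -0.34 for Itgal and -0.07 for Itga4. Itgb2 then rose, by 0.44 (adjusted p = 0.0281), in a fit that called 3172 genes higher and 28 lower. After leaving out iron negative 3L, 3R, 4R or 5L, no member passed in edgeR, although 3 leukocyte chains were lower and 2 matrix-binding chains higher at an unadjusted p under 0.05 in each of those fits. Hardly any gene passed in them: 0 of all genes tested without 3L, 3R or 4R, and 26 higher and 12 lower without 5L.

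**Figure D1:**
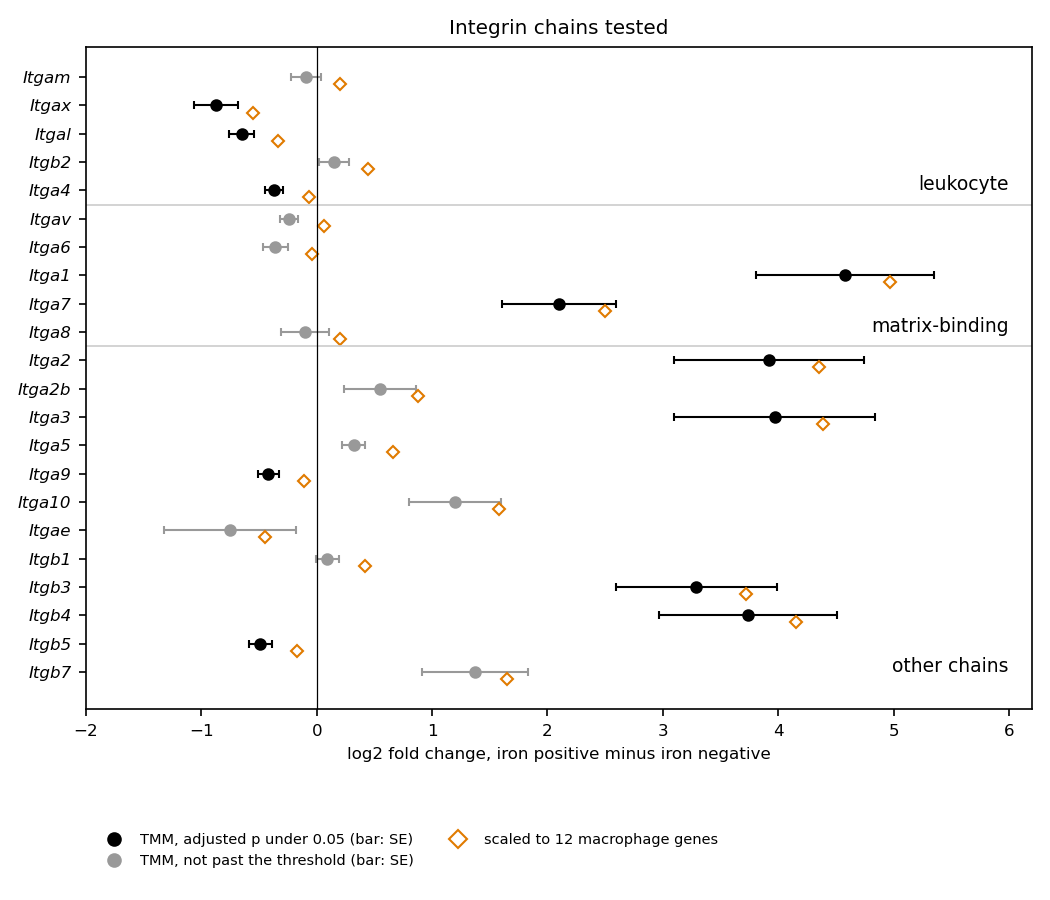
Log2 fold changes (x axis, iron positive minus iron negative) of the 22 integrin chains tested, with circles for TMM scaling (bars are SE, n = 4 per fraction, black where adjusted p is under 0.05) and open diamonds for scaling to 12 macrophage genes. Itga1 stands furthest to the right at 4.58 and Itgax furthest to the left at -0.87 among the called chains.

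Promoters are shown for 3 members with different patterns: Itgam, the chain with the highest level, which did not pass the test, Itgax, the member with the largest fall, and Itga1, the one with the largest rise. The sequences are the 250 bases before the annotated start, 5′ to 3′ on the strand of the gene, from RefSeq on GRCm38.p6. Capitals mark the letters GAGGAA on either strand, the core of many sites of PU.1, the myeloid factor encoded by Spi1. These letters contain GGAA, the core shared by the whole ETS family.
Itgam, chr7:128062390-128062639, plus strand: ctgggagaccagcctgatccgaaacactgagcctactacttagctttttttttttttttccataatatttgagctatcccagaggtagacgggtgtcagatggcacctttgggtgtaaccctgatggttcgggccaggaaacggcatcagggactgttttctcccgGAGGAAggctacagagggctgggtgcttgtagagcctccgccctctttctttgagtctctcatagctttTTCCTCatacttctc
Itgax, chr7:128129300-128129549, plus strand: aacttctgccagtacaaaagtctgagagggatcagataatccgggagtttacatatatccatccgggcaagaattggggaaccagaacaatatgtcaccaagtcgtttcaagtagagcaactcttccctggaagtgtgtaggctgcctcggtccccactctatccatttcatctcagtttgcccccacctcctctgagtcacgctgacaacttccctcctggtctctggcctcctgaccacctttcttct
Itga1, chr13:115101965-115102214, minus strand: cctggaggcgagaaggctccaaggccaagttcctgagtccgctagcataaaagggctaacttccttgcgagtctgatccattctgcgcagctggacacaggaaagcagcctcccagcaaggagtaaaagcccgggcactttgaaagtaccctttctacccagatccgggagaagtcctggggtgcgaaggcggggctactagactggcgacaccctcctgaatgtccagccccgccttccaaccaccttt

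The table of promoters held 6 of the 10 members, and Itgal, Itgb2, Itga6 and Itga7 had no entry. GAGGAA was found 2 times each in the windows of Itgam (first base at -84 and -15, with -1 the base before the start) and Itgav (-218 and -7), and in no window of Itgax, Itga4, Itga1 or Itga8. It occurs in 23.4% of 32536 windows of the same length. GGGCGG, a GC box, was found in the windows of Itgam (-47) and Itga4 (-114) and in 33% of all windows, and TATAAA in none of the 6 and in 12.3% of all. Of the 2 members with GAGGAA neither passed the test, and of the 4 without it 3 did and 1 did not, which is a description of these letters in these windows only.

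Among the leukocyte chains, Itgam and Itgb2, which form a receptor together, did not pass, while the other 3 alpha chains fell. Itgam (chromosome 7, 128062640 to 128118491, plus strand, mm10) encodes the alpha chain of the complement receptor Mac-1, a general myeloid marker. In CPM, counts scaled to a common library size with TMM factors, it stood at 1160 (3L), 1083 (3R), 1075 (4R) and 1119 (5L) in the iron negative and 1146, 760, 1167 and 1098 in the iron positive libraries, in the same order of tags. The fractions overlapped, with 3 of 4 iron positive libraries inside or at the edge of the iron negative range and 3R well below it. Its log2 fold change was -0.09 ± 0.13 (SE, adjusted p = 0.697). It turned to 0.20 (adjusted p = 0.155) under the macrophage scaling and to 0.04 without iron positive 3R.

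Itgb2 (chromosome 10, 77530252 to 77565708), the shared beta chain without which none of these receptors reaches the surface, had 466, 446, 431 and 423 CPM in the iron negative and 564, 360, 551 and 477 in the iron positive libraries. Iron positive 3R lay below all iron negative libraries and the other 3 above them. The log2 fold change was 0.15 ± 0.13 (adjusted p = 0.504), and the macrophage scaling made it a call, as given above.

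Itgax (chromosome 7, 128129547 to 128150657) encodes the alpha chain often used to mark dendritic cells, and which tumor macrophages also make. Its levels were 530, 556, 511 and 349 CPM in the iron negative and 267, 319, 190 and 292 CPM in the iron positive libraries. The fractions did not overlap, but iron negative 5L lay close to iron positive 3R. The level fell by 0.87 ± 0.19 on the log2 scale (adjusted p = 0.0242), to 0.549 of the iron negative level. The call was lost without iron positive 4R, the library with the lowest value (log2 fold change -0.73, adjusted p = 0.0508), and with limma voom (adjusted p = 0.0502).

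Itgal (chromosome 7, 127296260 to 127335138), the alpha chain of LFA-1, which binds ICAM-1 in leukocyte contacts, was at 331, 324, 308 and 296 CPM against 196, 209, 163 and 235 CPM. All iron positive values lay below all iron negative ones, with 4R lowest and 5L nearest to the iron negative range. It fell by 0.65 ± 0.11 (adjusted p = 0.0173), to 0.637 of the iron negative level.

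Itga4 (chromosome 2, 79255426 to 79333123) had 122, 128, 134 and 119 CPM in the iron negative and 98.9, 90.2, 90.3 and 110 CPM in the iron positive libraries. The groups did not overlap, with iron positive 5L nearest to the iron negative range. It fell by 0.37 ± 0.08 (adjusted p = 0.0218). It did not pass without iron positive 4R (adjusted p = 0.0611) or on either TPM scale (adjusted p = 0.115 and 0.103 with pseudocounts of 1 and 0.1).

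**Figure D2:**
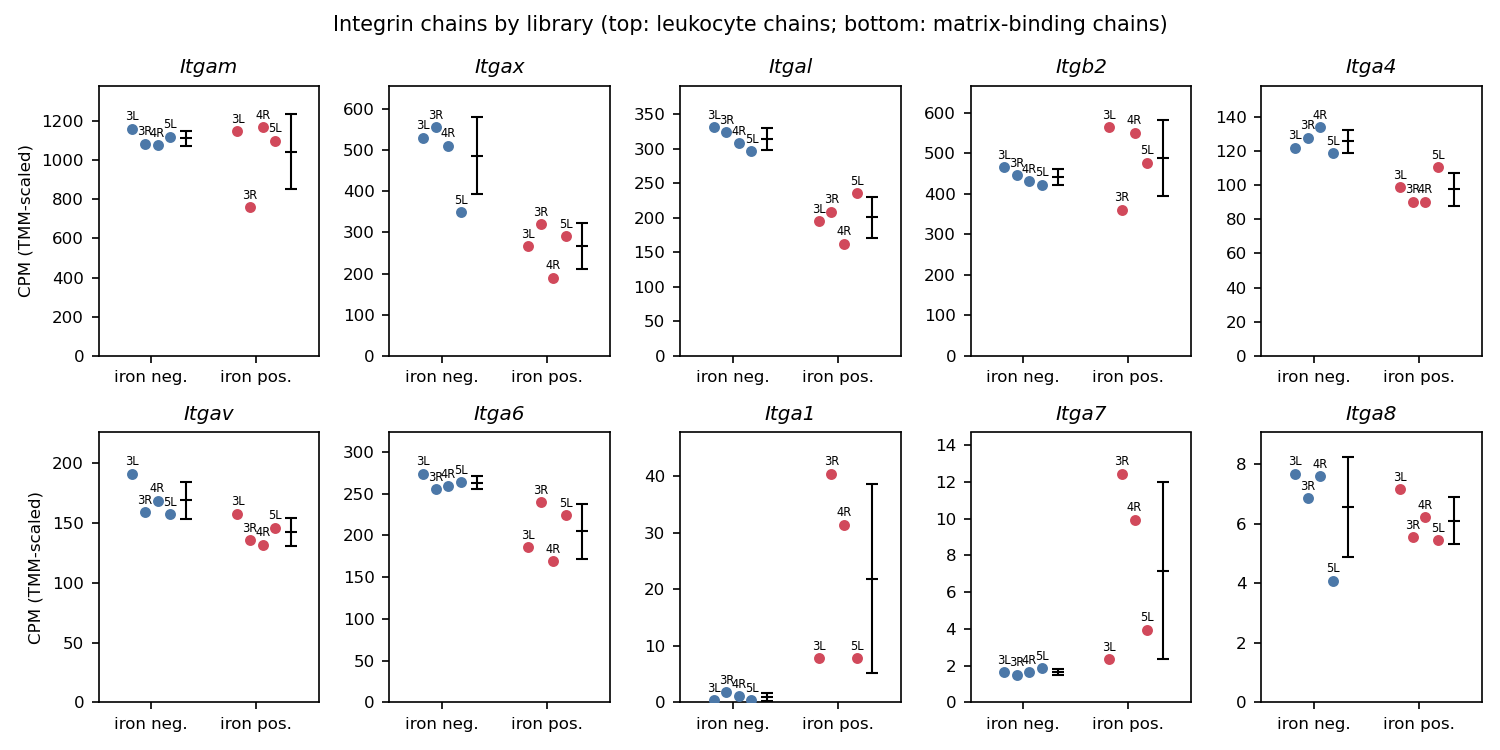
TMM-scaled CPM (y axis, from 0, own scale per panel) of the 10 chains in each library, blue for iron negative and red for iron positive, with tags above the points and the mean ± SD (n = 4) beside them. Itgal, Itga4 and Itgax sit lower in every iron positive library, Itga1 and Itga7 higher, and Itgam and Itgb2 are lowest in iron positive 3R.

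Markers of macrophages were also lower in part. All 12 macrophage markers were detected, and 5 of them were called lower and none higher (Csf1r among them, at -0.61), or 9 lower with the tag block. Their summed level ran from 28270 to 31360 CPM in the iron negative and from 21220 to 28510 CPM in the iron positive libraries, where 3R was lowest and only 3L reached the iron negative range. The 8 neutrophil markers summed to 71.4 to 83.7 and 69.4 to 96.2 CPM, mostly Csf3r, with Ly6g at 0 in 7 of 8 libraries. Of them S100a8 (2.48, adjusted p = 0.0214) and S100a9 (1.99, adjusted p = 0.0231) were called higher, and with the block 3 markers were. The 7 dendritic cell markers summed to 3.61 to 6.63 and 5.86 to 11.2 CPM, 1 of them called higher (Zbtb46). In the iron positive fraction this sum was highest in 3R (11.2 CPM) and 4R (10.25 CPM), as was that of the endothelial markers given below. The 10 T and NK cell markers summed to 33.4 to 51.2 and 20.0 to 26.8 CPM, mostly Cd4, which some macrophages also make, and 1 was called lower, or 3 with the block. The part of these cell types in the integrin results was not tested.

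Per transcript length, the order of the chains also differed between fractions. Levels between genes are compared in TPM of full-length coding transcripts, meaning protein-coding transcripts of at least 50% of the length of the longest one. In the iron negative fraction the order was Itgam (mean 311 TPM), Itgb2 (194), Itgax (154), Itgal (79.9), Itga6 (50.4), Itgav (27.3), Itga4 (15.8), Itga8 (1.37), Itga7 (0.144) and Itga1 (0.097). Only the last pair had overlapping ranges, and Itga7 was above Itga1 in 3 of 4 libraries. In the iron positive fraction the first 7 kept their places (302, 221, 87.6, 52.1, 39.5, 24.2 and 12.7 TPM), followed by Itga1 (2.39), Itga7 (2.03) and Itga8 (1.26). There the ranges of Itgam and Itgb2, of Itgal and Itga6, and of Itga1, Itga7 and Itga8 overlapped between libraries. Within a library, Itgam was above Itgb2 and Itgal above Itga6 in 4 of 4, Itga1 above Itga7 in 3 of 4, and Itga7 above Itga8 in 2 of 4 (3R and 4R). The order of Itgal and Itga6, and in the iron positive fraction also that of Itgal and Itgav, depended on the choice of transcripts. Over all transcripts, Itga6 was above Itgal in every library of both fractions. It then had 104, 106, 108.5 and 108 TPM against 81.3, 85.6, 82.5 and 74.4 in the iron negative libraries. In the iron positive ones it had 76.3, 107.6, 74.8 and 95.0 TPM against 49.0, 56.0, 45.3 and 64.7. Itgav, over all transcripts, was above Itgal in iron positive 3L (59.4 against 49.0 TPM) and 4R (48.7 against 45.3), and below it in 3R and 5L. Leukocyte chains summed to 9.12 to 10.2 times the matrix-binding chains in the iron negative libraries and to 6.99 (3R) to 11.5 times (3L) in the iron positive ones. The leukocyte sum includes the beta chain Itgb2, and the matrix-binding sum holds no beta chain. Full-length coding transcripts were 47.3% and 44.6% of the Itga6 TPM (iron negative and iron positive) and 39.6% and 43.5% of the Itgav TPM. For the leukocyte chains they were 81.7% to 99.0%, so the size of this ratio depends on the chains and transcripts chosen.

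The make-up of the Itgb2 family differed between the fractions. Of the summed full-length TPM of Itgam, Itgax and Itgal, Itgal took 14.4%, 14.9%, 14.5% and 14.8% in the iron negative and 10.95%, 14.3%, 9.48% and 12.8% in the iron positive libraries (3L, 3R, 4R, 5L), with no overlap. Iron positive 3R lay just below iron negative 3L, however. Itgam took 56.3%, 54.0%, 55.6% and 62.9% against 70.5%, 58.1%, 76.4% and 67.0%, which overlap through iron positive 3R and iron negative 5L. Itgax took 29.3%, 31.1%, 29.9% and 22.3% against 18.6%, 27.6%, 14.1% and 20.2%, which overlap through the same libraries. The 3 alpha chains together held 2.83, 2.90, 2.84 and 2.66 times the TPM of Itgb2 in the iron negative and 1.83, 2.35, 1.78 and 2.19 times in the iron positive libraries. Each iron positive library thus had fewer alpha transcripts per beta transcript than any iron negative one. These ratios within a library do not depend on the scaling between libraries, and as sums over chosen chains they were not tested.

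**Figure D3:**
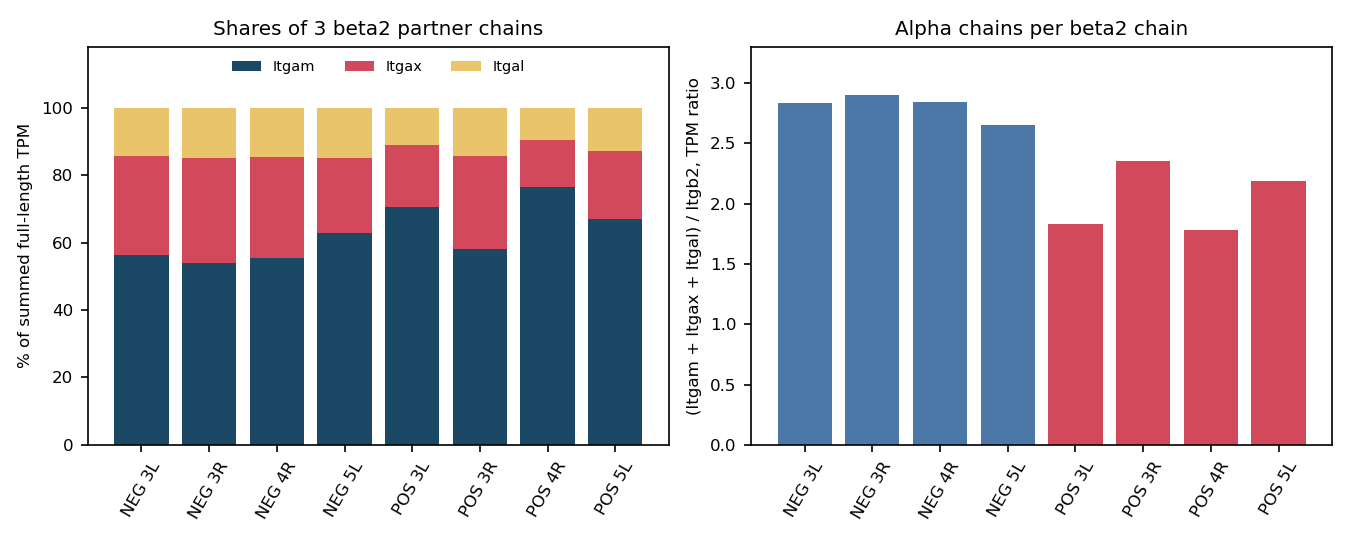
Left, share of Itgam, Itgax and Itgal in their summed full-length TPM (y axis, percent) for each library (NEG, iron negative; POS, iron positive). Right, the sum of the 3 alpha chains over Itgb2 (y axis, ratio of TPM, no unit), which is 2.66 to 2.90 in iron negative (blue) and 1.78 to 2.35 in iron positive libraries (red).

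The matrix-binding chains fell into different patterns. Itga1 and Itga7 were near 0 in the iron negative fraction and rose, Itgav and Itga6 were well expressed in both fractions and lower in every pair, and Itga8 was low in both. The signs of Itgav and Itga8 turned with the macrophage scaling. Itga1 (chromosome 13, 114953096 to 115101964, minus strand), a collagen-binding chain of smooth muscle, pericytes and capillary endothelium among other cells, had 0.40, 1.80, 1.12 and 0.35 CPM in the iron negative and 7.83, 40.4, 31.4 and 7.79 CPM in the iron positive libraries. No iron positive value came near the iron negative range, and 3R and 4R stood well above 3L and 5L. It rose by 4.58 ± 0.77 on the log2 scale (24-fold, adjusted p = 0.0173), and by 4.36 on the tags ending in L and 4.58 on those ending in R. It did not pass with limma voom (adjusted p = 0.118). Pelo and Gm49395 overlap it on the same strand, so how reads were shared between them is uncertain. Pelo held far more estimated counts than Itga1 in the iron negative libraries, at 414, 264, 264 and 257 against 9, 37, 25 and 8, and 338, 299, 389 and 313 against 157, 802, 721 and 177 in the iron positive ones. Gm49395 had 2 to 3 and 15.5 to 50.8.

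Itga7 (chromosome 10, 128933818 to 128958282), a laminin-binding chain known from skeletal and smooth muscle, had 1.64, 1.51, 1.66 and 1.87 CPM in the iron negative and 2.34, 12.5, 9.94 and 3.96 CPM in the iron positive libraries. The fractions did not overlap, but iron positive 3L lay just above the iron negative range. It rose by 2.10 ± 0.49 (4.29-fold, adjusted p = 0.029). The rise was 0.84 on the tags ending in L (adjusted p = 0.335) and 2.78 on those ending in R. Itga7 lost its call without iron positive 4R (adjusted p = 0.0784).

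The transcripts behind the Itga7 sum differed between fractions. In the iron negative libraries 69.0% to 76.6% of the TPM of the gene belonged to Itga7-205, a transcript of 1 exon and 3843 bases annotated as a retained intron. Its level was 0.403, 0.358, 0.447 and 0.475 TPM in the iron negative and 0.345, 0.289, 0.607 and 0.396 TPM in the iron positive libraries, which overlap. The full-length coding transcripts Itga7-201 and Itga7-202 together went from 0.123, 0.161, 0.136 and 0.154 TPM to 0.372, 3.94, 2.86 and 0.935 TPM, with no overlap. They rested on 9 to 11 estimated counts in each iron negative library and 23.6 to 225 in the iron positive ones. When the fit over all genes used protein-coding transcripts only, Itga7 rose by 3.75 ± 0.67 (adjusted p = 0.0181), against 2.10 for all its transcripts. The other 9 members kept their calls in that fit, with log2 fold changes of 4.57 for Itga1, -0.85 for Itgax, -0.64 for Itgal and -0.35 for Itga4.

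**Figure D4:**
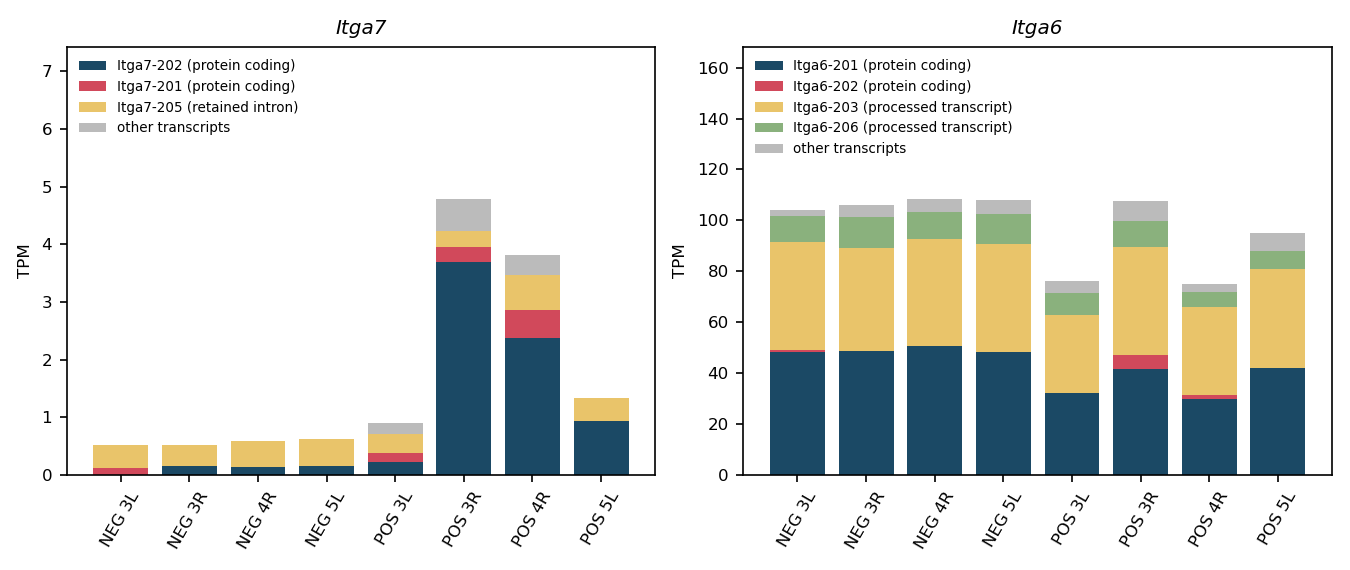
TPM (y axis) of the transcripts of Itga7 (left) and Itga6 (right) in each library (NEG, iron negative; POS, iron positive), stacked, with colours for transcripts and their annotated type. For Itga7 the retained-intron transcript Itga7-205 makes up most of each iron negative bar, and the coding transcript Itga7-202 reaches 3.69 TPM in iron positive 3R.

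Itga6 (chromosome 2, 71745616 to 71858416), the alpha chain of laminin receptors of many epithelia, endothelia and platelets, was abundant in both fractions. It stood at 274, 255, 259 and 264 CPM in the iron negative and at 186, 240, 170 and 224 CPM in the iron positive libraries, without overlap. The log2 fold change was -0.36 ± 0.11 (adjusted p = 0.0614), and it passed once the tag entered as a block (-0.37, adjusted p = 0.0374) and with DESeq2 (adjusted p = 0.0131), and also without iron positive 3R (-0.45, adjusted p = 0.0265). Under the macrophage scaling it was -0.04 (adjusted p = 0.837). Transcripts annotated as not coding held much of this gene: the 3-exon Itga6-203 took 39.2% ± 1.2 (SD, n = 4) of its TPM in the iron negative and 41.7% ± 2.8 in the iron positive libraries. The coding transcript Itga6-201 stood at 48.2, 48.5, 50.8 and 48.5 TPM against 32.2, 41.5, 30.0 and 42.0 TPM, again without overlap. A second coding form, Itga6-202, reached 5.49 TPM in iron positive 3R and 1.505 TPM in iron positive 4R, and at most 0.726 TPM in the other libraries. Protein-coding transcripts alone gave -0.40 ± 0.12 (adjusted p = 0.0631).

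Itgav (chromosome 2, 83724397 to 83806916) had 191, 159, 169 and 158 CPM in the iron negative and 158, 136, 132 and 146 CPM in the iron positive libraries. The ranges touched, with iron positive 3L just above iron negative 5L, and each iron positive library was below the iron negative one of its tag. The log2 fold change was -0.24 ± 0.08 (adjusted p = 0.0868). Blocking on the tag made it a call, as lower (-0.24, adjusted p = 0.028), and under the macrophage scaling it was 0.06 (adjusted p = 0.594). Full-length coding transcripts made up 39.6% of its TPM in the iron negative and 43.5% in the iron positive fraction. The 688-base Itgav-206, which has 3 exons, held 37.2% ± 2.3 and 32.6% ± 6.6.

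Itga8 (chromosome 2, 12106632 to 12301922, minus strand), a chain of mesangial and smooth muscle cells, had the lowest level of the 5 members that did not pass. Its values were 7.69, 6.87, 7.61 and 4.09 CPM against 7.18, 5.55, 6.24 and 5.46 CPM, which overlap. The log2 fold change was -0.10 ± 0.21 (adjusted p = 0.773), and it was 0.20 under the macrophage scaling and 0.17 on log2(TPM + 0.1). Its iron positive values all lay inside the iron negative range, which iron negative 5L sets at the low end.

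Markers of vascular and stromal cells moved with Itga1 and Itga7. All 11 endothelial markers were called higher, and their summed level went from 35.2 to 68.4 CPM in the iron negative to 166 (3L), 1371 (3R), 832 (4R) and 218 (5L) CPM in the iron positive libraries. Of 10 pericyte and smooth muscle markers 6 were called higher (summed 29.1 to 61.9 and 96.0 to 714 CPM), of 10 fibroblast and fibrosarcoma markers 6 (124 to 394 and 498 to 4767 CPM), and of 7 skeletal muscle markers 6 (3.04 to 4.68 and 18.2 to 53.9 CPM). Each of the first 3 sums was highest in iron positive 3R, then 4R, 5L and 3L, the order of Itga7. Itga1 had the same order but for nearly equal values in 3L and 5L. Skeletal muscle markers were instead highest in 3R and 3L. The block raised the pericyte calls to 8 and the fibroblast calls to 9. Of these 4 lists, no marker was at 0 in all iron negative libraries. Red cell markers had the order of Itga1 too, at 46.1, 212, 89.0 and 41.9 CPM in iron positive 3L, 3R, 4R and 5L. They summed to 11.8 to 60.7 CPM in the iron negative libraries, so the fractions overlapped. Of the 5 red cell markers tested 0 were called, or 4 higher with the block. The part of any of these cells in the rise of Itga1 and Itga7 was not tested.

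**Figure D5:**
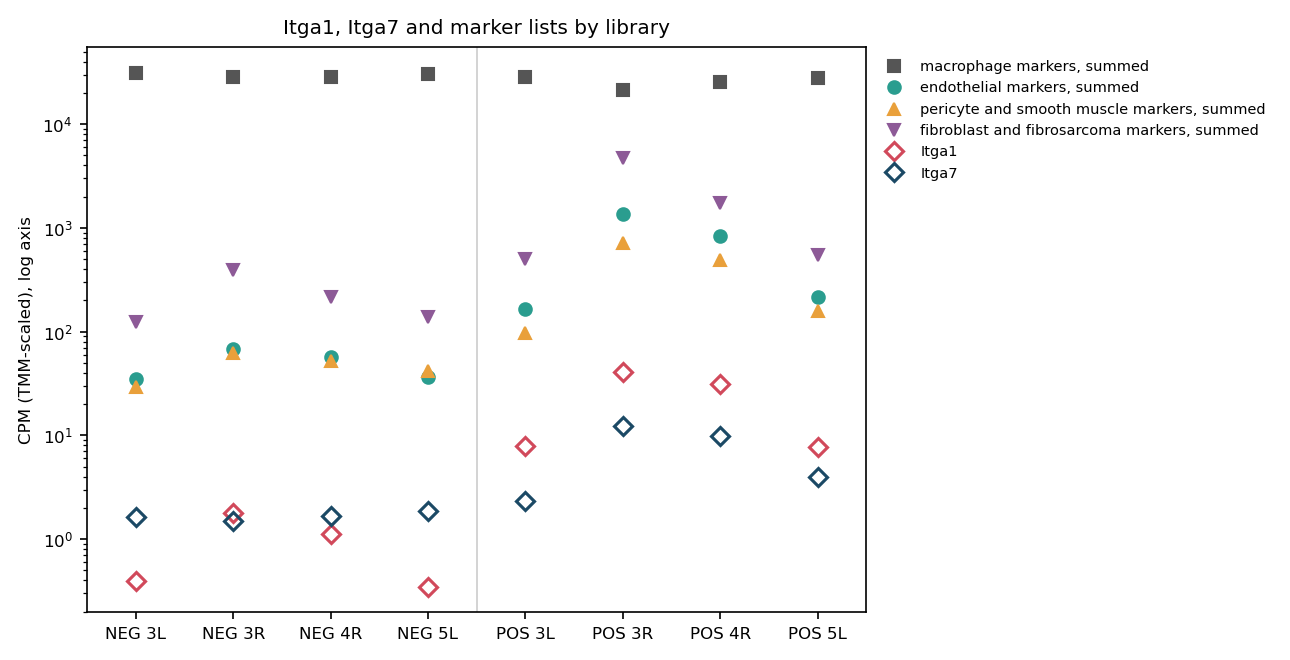
CPM (y axis, log scale) of Itga1 and Itga7 (open diamonds) and summed CPM of 4 marker lists (filled symbols) in each library (NEG, iron negative; POS, iron positive). Endothelial, pericyte and fibroblast sums and both chains are highest in iron positive 3R and next in 4R, while the macrophage sum is lowest in iron positive 3R.

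The genes with the most similar profiles differed from chain to chain. Likeness was Pearson's r of log2 CPM over the 8 libraries against 10153 genes averaging 5 CPM or more, and since the libraries form 2 fractions, it reflects the fraction difference as well as the spread within it. Closest to Itgax were the MHC class II genes H2-Aa (0.993), H2-Ab1 (0.992) and H2-Eb1 (0.992), which present antigen. Itgal was closest to Cd72 (0.998), Lpcat2 (0.997) and Rtcb (0.996), and Itga4 had Tep1 and Mtmr6 (0.991 each) among its closest. For Itgam they were Atp9b (0.988), Tmem106a (0.97) and Phyh (0.955), and for Itgb2 Lmbrd1 (0.981), Cndp2 (0.979) and Ppp3r1 (0.978). Itga1 ran closest with C130074G19Rik (1 to 3 decimals), the endothelial receptor kinase Tie1 (0.997) and Mgll (0.997), and Itga7 with Dchs1 (0.995), Caskin2 (0.995) and Rtl8b (0.993). Itga6 had Med14 (0.998), Hirip3 (0.996) and Cdca8 (0.987), Itgav had Clec7a (0.992), Top1 (0.987) and Dynlt1f (0.986), and Itga8 had Aimp1 (0.948), Dnajc14 (0.938) and Tmem185a (0.925). Among the members themselves, r was 0.94 between Itgax and Itgal, 0.93 between Itgal and Itga4, and 0.92 between Itgal and Itga6. It was 0.89 between Itga1 and Itga7, and -0.01 between Itgam and Itgax. Itgb2 had 0.77 with Itgam, -0.47 with Itgax and -0.44 with Itgal.

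The other integrin chains include the partners of the members. Of 16 other integrin chains 12 were tested, of which 4 rose and 2 fell (median log2 fold change 0.88, against -0.01 over all genes), and without iron positive 4R 0 rose in edgeR (7 at an unadjusted p under 0.05). Itgb1, the common partner of Itga1, Itga4, Itga6, Itga7 and Itga8, had 509.5 ± 36.4 (SD, n = 4) CPM in the iron negative and 541 ± 69.0 CPM in the iron positive fraction and did not pass (0.09 ± 0.10, adjusted p = 0.603). The partners of Itgav went apart: Itgb5 fell by 0.49 ± 0.10 (adjusted p = 0.0229, -0.17 and not called under the macrophage scaling), and Itgb3 rose by 3.29 ± 0.70 (adjusted p = 0.0222) from 1.90, 3.36, 2.02 and 1.83 CPM to 5.88, 50.8, 24.8 and 7.70 CPM. Itgb4, which pairs only with Itga6 in hemidesmosomes and some endothelia, rose by 3.74 ± 0.77 (adjusted p = 0.0209), from 0.57, 1.22, 1.12 and 0.48 CPM to 2.59, 22.9, 16.3 and 3.61 CPM. Itga3 (3.97) and Itga2 (3.92) rose too, and like Itgb3 and Itgb4 they were highest in 3R and next in 4R. Itga9, a relative of Itga4, fell by 0.42 ± 0.09 (adjusted p = 0.0244, and -0.11 without a call under the macrophage scaling).

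The remaining 6 tested chains of this list, with Itgb1 above among them, did not pass. Itga5, the fibronectin receptor chain, was higher in all 4 pairs (0.32, adjusted p = 0.0724), Itga10 had 1.20 (adjusted p = 0.0787, and 0.0489 with the block), Itgb7, the other partner of Itga4, 1.37 (adjusted p = 0.0828), Itga2b 0.55 (adjusted p = 0.271) and Itgae -0.75 (adjusted p = 0.406). Itga11, Itgad, Itgb6 and Itgb8 did not pass the low-count filter and were not tested, and their means were at most 1.76 CPM in either fraction. The macrophage scaling called 7 of the 12 higher and 0 lower, with 0 lower at an unadjusted p under 0.05. Over all 13343 genes, that scaling called 3172 higher and 28 lower, with 125 lower at an unadjusted p under 0.05.

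Ligands on cells went in both directions, and ligands in the matrix mostly rose. Of 10 cell-bound ligands 8 were tested, with 3 higher and 2 lower, or 4 higher and 3 lower with the block. Vcam1, the counter-receptor of Itga4, fell by 0.66 ± 0.14 (adjusted p = 0.0224), from 800 to 908 CPM in the iron negative to 417.5 to 682 CPM in the iron positive libraries, and F11r fell by 0.53. Icam2, a ligand of Itgal, rose by 1.99 ± 0.45 (adjusted p = 0.026), as did the junctional molecules Jam2 (3.90) and Jam3 (2.14). Icam1, the main ligand of the Itgal and Itgam receptors, had -0.32 (adjusted p = 0.0655, and 0.0115 as lower with the block). Under the macrophage scaling Vcam1 (-0.36) and F11r (-0.20) were not called.

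Of 22 matrix ligands 19 were tested, and 15 rose and 1 fell, with a median log2 fold change of 2.35. Of all genes tested, 8.49% were called higher and 5.21% lower, with a median of -0.01. Without iron positive 4R, 5 matrix ligands rose in edgeR (15 at an unadjusted p under 0.05). Col1a1, Col1a2 and Fbn1 are also among the fibroblast markers above, so the lists share genes. The laminin chain Lama5, bound by receptors with Itga6 and Itga3, rose by 5.95 ± 0.97 (adjusted p = 0.0173), Lamb1 by 3.42 ± 0.55 (adjusted p = 0.0173) and Lamc1 by 2.05 ± 0.41 (adjusted p = 0.0202). Col4a1, of basement membrane collagen and bound by the Itga1 receptor, rose by 5.11 ± 1.02 (adjusted p = 0.0199), from 9.24, 49.0, 26.2 and 6.83 CPM to 156, 1810, 953 and 219.6 CPM. Fn1, bound by receptors with Itga4, Itga5, Itgav or Itga8, was already at 277 to 402 CPM in the iron negative libraries and rose by 0.85 ± 0.17 (adjusted p = 0.0209). Tgfb1, whose latent form is bound by Itgav receptors, was the ligand that fell (-0.41 ± 0.07, adjusted p = 0.0177), without a call under the macrophage scaling (-0.11). Npnt, the preferred ligand of the Itga8 receptor, did not pass (1.24, adjusted p = 0.192).

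Of 31 genes of integrin activation and the adhesion complex 30 were tested, with 5 higher, 4 lower and a median of -0.04. Blocking on the tag gave 9 higher and 8 lower, and scaling to macrophage genes gave 11 higher and 0 lower in edgeR (0 lower at an unadjusted p under 0.05). Over all 13343 genes, the block called 1705 higher and 1253 lower, and the macrophage scaling 3172 and 28. Some related genes lay on opposite sides. Ptk2, the focal adhesion kinase, rose by 1.92 ± 0.36 (adjusted p = 0.0184), while its relative Ptk2b fell by 0.32 ± 0.06 (adjusted p = 0.0177). The kindlin of blood cells, Fermt3, had -0.30 (adjusted p = 0.0562, and 0.0268 as lower with the block) and Fermt2, that of other tissues, 2.34 (adjusted p = 0.0669, and 0.00257 as higher with the block). Lims2 (5.08) and Rasgrp2 (1.71), an activator of Rap1, rose, and Parvg (-0.54) and the adaptor Fyb (-0.43) fell. Ptk2b, Parvg and Fyb were not called under the macrophage scaling, at -0.01, -0.23 and -0.13.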

How the data were processed

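RNA of 8 libraries was sequenced in bulk, 4 per column fraction. Per the submitters' processing notes, kallisto 0.46.2 and mm10 were used. For the transcript set, a release was not given in the sources used. Per the file headers, the deposited tables give estimated counts per transcript, not normalized, and TPM, scaled by effective length and library total in the authors' run, besides lengths. Of 119414 transcripts, 116728 matched GENCODE M21 (GRCm38) by identifier without version, and the other 2686, holding 0.888% to 0.961% of the counts, were left out.

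Estimated counts were summed per gene, without strand, and rounded. Genes passing filterByExpr (13343) were scaled by TMM and tested with edgeR 4.0.16 (glmQLFit, glmQLFTest, R 4.3.3) on the fraction alone. SE is the log2 fold change over the root of F, an approximation. All 10 members passed the filter. DESeq2 1.42.0 and limma 3.58.1 served as alternatives, with pseudocounts of 1 and 0.1 for log2(TPM). The script was tested on simulated data. Genes on a member's opposite strand held at most 1.39% of its counts, except Mettl7b at Itga7 (5.39%, 2 counts).

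The members and gene lists were chosen with earlier results of these data known. Besides members and other chains, up to 5 genes per pathway list with the smallest adjusted p among those called were named, and for each member the 3 genes with the highest r, of which 1 for Itga4 is not reported here. Fn1, Icam1, Npnt, Ptk2, Fermt2, Fermt3 and the marker genes were named after their values were seen. Same-tag libraries deviated together from their fraction's mean (r of 0.53, 0.52, 0.27 and 0.30 across genes for 3L, 3R, 4R and 5L). Between unlike tags r ran from -0.47 to 0.26. Iron positive 4R had 0.26 with iron negative 3R, and iron positive 5L had 0.23 with iron negative 3L. For 4R and 5L the same-tag value was thus only slightly higher. The tags in the labels were taken as pairing, and the block is given where it changes a call. Alternatives covered scaling, filters, tools, TPM, the block and each library left out. Protein-coding transcripts only, and tags ending in L or R, were added after seeing the data. What the letters stand for is not given in the labels.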

Additional observations from a re-analysis of the deposited data

Results flagged for a closer look

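Among the 20 sets of 4 libraries (10 members, 2 fractions) screened for a single library far from the rest, 1 stood out: Itgam in iron positive 3R, at 760 CPM against 1098 to 1167 CPM in the other iron positive libraries. Its gap to the next value was 0.831 of the whole range, just above the critical value of 0.829, and chance alone marks about 1 set in 20. The same library had the lowest level of Itgb2 and the lowest summed macrophage markers, and the highest summed endothelial, pericyte and fibroblast markers.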

How the results depend on the processing

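Among 210 refits of the 10 members' log2 fold changes, 159 kept their direction and their side of the threshold, and 7 turned sign. Macrophage scaling turned Itgam (0.20), Itgav (0.06) and Itga8 (0.20), log2(TPM + 1) and log2(TPM + 0.1) turned Itga8 (0.11 and 0.17), the tags ending in L turned Itga8 (0.09), and Itgam was 0.04 without iron positive 3R. Calls of members were lost with macrophage scaling (Itgax -0.55, Itgal -0.34, Itga4 -0.07), limma voom (Itgax -0.87, Itga1 4.49, Itga7 1.80), log2(TPM + 1) (Itga4 -0.29, Itga1 1.72, Itga7 1.09), log2(TPM + 0.1) (Itga4 -0.31, Itga7 1.79) and on the tags ending in L (Itgax -0.66, Itgal -0.55, Itga4 -0.21, Itga7 0.84). Calls were gained for Itgb2 with macrophage scaling (0.44), for Itga6 with DESeq2 (-0.36), and with the replicate block for Itgav (-0.24) and Itga6 (-0.37). The block changed no other call of a member. The cause of these changes was not tested.

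Counts of calls, higher then lower, follow in the order leukocyte members, matrix-binding members, other chains, cell ligands, matrix ligands and adhesion complex, against 0 and 3, 2 and 0, 4 and 2, 3 and 2, 15 and 1, and 5 and 4 in the fit reported. Macrophage scaling gave 1 and 0, 2 and 0, 7 and 0, 4 and 0, 15 and 0, and 11 and 0. DESeq2 gave 1 matrix-binding member lower, 7 other chains higher, and 10 and 7 for the adhesion complex. The replicate block gave 2 matrix-binding members lower, and 9 and 8 for the adhesion complex. With limma voom no matrix-binding member, other chain or cell ligand was higher, and there were 1 cell ligand lower, 3 matrix ligands higher and 1 adhesion gene higher. Using log2(TPM + 1), 0 matrix-binding members, 1 other chain, 1 cell ligand and 6 matrix ligands were higher, and 1 other chain, 1 cell ligand and 2 adhesion genes lower. Using log2(TPM + 0.1), 1 matrix-binding member and 9 matrix ligands were higher, and 1 other chain, 1 cell ligand and 2 adhesion genes lower. Library totals gave 1 cell ligand lower, and a minimum of 1 CPM in 4 libraries 3 adhesion genes higher. The tags ending in L gave 1 matrix-binding member, 1 cell ligand, 9 matrix ligands and 2 adhesion genes higher, and 0 lower in each list. The tags ending in R gave 9 adhesion genes higher, 1 other chain lower and 0 matrix ligands lower. Over all genes tested, the fit reported called 1133 higher and 695 lower. Macrophage scaling called 3172 and 28, DESeq2 1703 and 1070, the replicate block 1705 and 1253, and limma voom 189 and 273. Using log2(TPM + 1) the counts were 413 and 205, and using log2(TPM + 0.1) 706 and 270. The tags ending in L gave 321 and 7, and those ending in R 1305 and 443.

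With 1 library left out, log2 fold changes ran from -0.15 to 0.04 (Itgam), -1.0 to -0.73 (Itgax), -0.74 to -0.56 (Itgal), 0.06 to 0.27 (Itgb2), -0.43 to -0.33 (Itga4), -0.30 to -0.18 (Itgav), -0.45 to -0.28 (Itga6), 4.11 to 5.12 (Itga1), 1.70 to 2.38 (Itga7) and -0.28 to -0.02 (Itga8). Counts ran from 0 to 3 (leukocyte members lower), 0 to 2 (matrix-binding members higher), 0 to 1 (matrix-binding members lower), 0 to 6 and 0 to 2 (other chains higher and lower), 0 to 4 and 0 to 3 (cell ligands), 0 to 17 and 0 to 1 (matrix ligands), and 0 to 9 and 0 to 6 (adhesion complex). Every list had 0 calls without iron negative 3L, 3R, 4R or 5L. Without 3L, 3R or 4R no gene at all passed in edgeR (smallest adjusted p 0.0619, 0.0511 and 0.063), and without 5L 26 genes were higher and 12 lower. Leaving out iron positive 4R also gave 0 other chains higher, with 399 genes higher and 214 lower. At unadjusted p under 0.05, 2066, 2145 and 2103 genes were higher without iron negative 3L, 3R and 4R. With macrophage scaling 99.1% of all calls were higher, with library totals 76.4%, and with TMM 62%. Depth limits Itga1 and Itga7 in the iron negative fraction, where their full-length transcripts had 7 to 32.2 and 9 to 11 estimated counts.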

Other observations

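Some chains that did not pass followed another order of libraries than Itga1 and Itga7. Itgb7, a leukocyte beta chain that pairs with Itga4 and Itgae, stood at 7.78, 9.80, 5.46 and 3.83 CPM in the iron negative libraries (3L, 3R, 4R, 5L) and at 26.4, 7.21, 25.5 and 10.4 CPM in the iron positive ones. It was thus high in iron positive 3L and 4R and within the iron negative range in 3R. DESeq2 called it higher (adjusted p = 0.0141), as did edgeR under the macrophage scaling (1.65, adjusted p = 0.0291). Spp1, an integrin ligand also known as osteopontin, was likewise highest in iron positive 3L and 4R (1362 and 1165 CPM, against 426 in 3R and 432 in 5L), and it was called higher (1.93, adjusted p = 0.0256). These genes were picked after their values were seen.

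Genes of the platelet list had different orders of libraries. Ppbp, a platelet chemokine gene, rose by 4.03 on the log2 scale, from 5.85 to 16.0 CPM in the iron negative to 361, 18.65, 314 and 69.2 CPM in the iron positive libraries. Pf4, another platelet chemokine gene, had the same order, with 394 to 473 CPM in the iron negative and 1213, 425, 1152 and 668 CPM in the iron positive libraries (0.98, adjusted p = 0.0635, and 0.0324 as higher with the block). The platelet chain Itga2b had 0.53 to 1.08 and 0.79 to 1.44 CPM, from 12 to 33 counts a library, and did not pass. In TPM, which depends on the transcripts its reads were assigned to, it had 0.200 to 0.711 in the iron negative and 1.37 to 2.66 in the iron positive libraries, with no overlap. The platelet glycoprotein genes Gp9 and Gp1bb reached at most 0.13 and 0.76 CPM.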
